A study of Mus musculus with 9 samples.

Results

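The axon guidance ligand and receptor families were examined in N2A cells, a mouse neuroblastoma line, after siRNA depletion of EXOSC3 or DDX1. EXOSC3 is a cap subunit of the RNA exosome, the complex that processes and degrades RNA, and DDX1 is a putative RNA helicase. The members were taken by symbol alone, as every Eph receptor, ephrin, semaphorin of classes 3 to 7, plexin, neuropilin, Slit, Robo, numbered netrin and Unc5 gene, together with Dcc. This gave 70 of the 24318 genes listed, of which 35 code for ligands, 34 for receptors, and 1, Plxna4os1, is a transcript from the strand opposite Plxna4 that the symbol pattern also takes. The 9 libraries, 3 in each of 3 groups, were sequenced after removal of ribosomal RNA, and each came from its own plate of cells. The siScramble group carries the genotype label WT and received scramble siRNA, the siEXOSC3 group is labelled EXOSC3 knockdown and the siDDX1 group DDX1 knockdown, and the treatment label of all 9 is Untreated. All cells were of 1 line, were transfected with siRNA by Lipofectamine, with no allele altered, so each knockdown models a partial loss of 1 transcript over the time of a transfection.

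Guidance proteins tell a growing axon where to turn. Ephrins are bound to the cell surface and signal through Eph receptor tyrosine kinases, semaphorins signal through plexins, with neuropilins as binding partners for most secreted semaphorins, Slits repel axons through Robos, and netrins attract through Dcc and repel through Unc5 receptors. Receptor levels decide which of these cues a neuron can sense, and neuroblastoma cells, which come from the sympathoadrenal lineage of the neural crest, express some of them.

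The labels were checked on the targeted genes and on marker genes. Exosc3 stood at 15.5% ± 1.90 of scramble (SD, n = 3) in siEXOSC3 cells and Ddx1 at 24.4% ± 2.99 (SD, n = 3) in siDDX1 cells, while Exosc3 stood at 97.3% in siDDX1 cells and Ddx1 at 100.5% in siEXOSC3 cells. Of 12 neuroblastoma markers, 11 reached a mean of 1 FPKM (fragments per kilobase of transcript, scaled to a fixed number of mapped fragments). None of the 5 astrocyte, 6 fibroblast or 6 blood and microglial markers reached it, Mbp did among 6 oligodendrocyte and Schwann cell markers, and Pecam1 among 5 endothelial markers. The summed neuroblastoma markers were higher in all 3 siEXOSC3 libraries (1061 to 1086 FPKM) than in the scramble libraries of the same table (824 to 882 FPKM), and lay at 872 to 941 FPKM in siDDX1 cells against 818 to 872 FPKM in its own table. The summed endothelial markers, nearly all of them Pecam1, also lay above scramble, at 6.24 to 9.19 against 4.11 to 4.75 FPKM in siEXOSC3 and at 5.04 to 5.77 against 4.08 to 4.69 FPKM in siDDX1. The summed astrocyte markers, all of them low, lay below scramble, at 0.296 to 0.519 against 0.600 to 0.705 FPKM in siEXOSC3 and at 0.314 to 0.455 against 0.593 to 0.700 FPKM in siDDX1. Of the 5 endothelial markers 2 were listed at 0 in all libraries of either table. The part of these shifts in the results on the guidance genes was not tested, and in bulk RNA fewer cells of a type and less RNA per cell cannot be told apart. FPKM do not hold the number of fragments, so the absolute depth is unknown. The steps between low values put the depth of the libraries between 0.829 and 1.21 times that of scramble replicate 1.

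Guidance receptors and ligands were present at very unequal levels, and many family members were hardly detected. In scramble cells Nrp2 was the highest of all members at 73.7 ± 4.83 FPKM (SD, n = 3), followed by Efna5, Unc5b, Unc5c, Plxna1 and Plxnb2, which lay between 27.0 and 29.6 FPKM. At the other end, 26 members never reached 0.1 FPKM in any of the 9 libraries, and 9 of these (Efnb1, Epha4, Epha5, Epha6, Ephb6, Ntn4, Robo4, Sema3c and Sema3d) were listed at 0 in all 9. Zeros are not certain in these tables, since single libraries also give 0 for 1 gene of the siEXOSC3 table and 2 of the siDDX1 table with a mean of at least 50 FPKM.

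**Figure D1:**
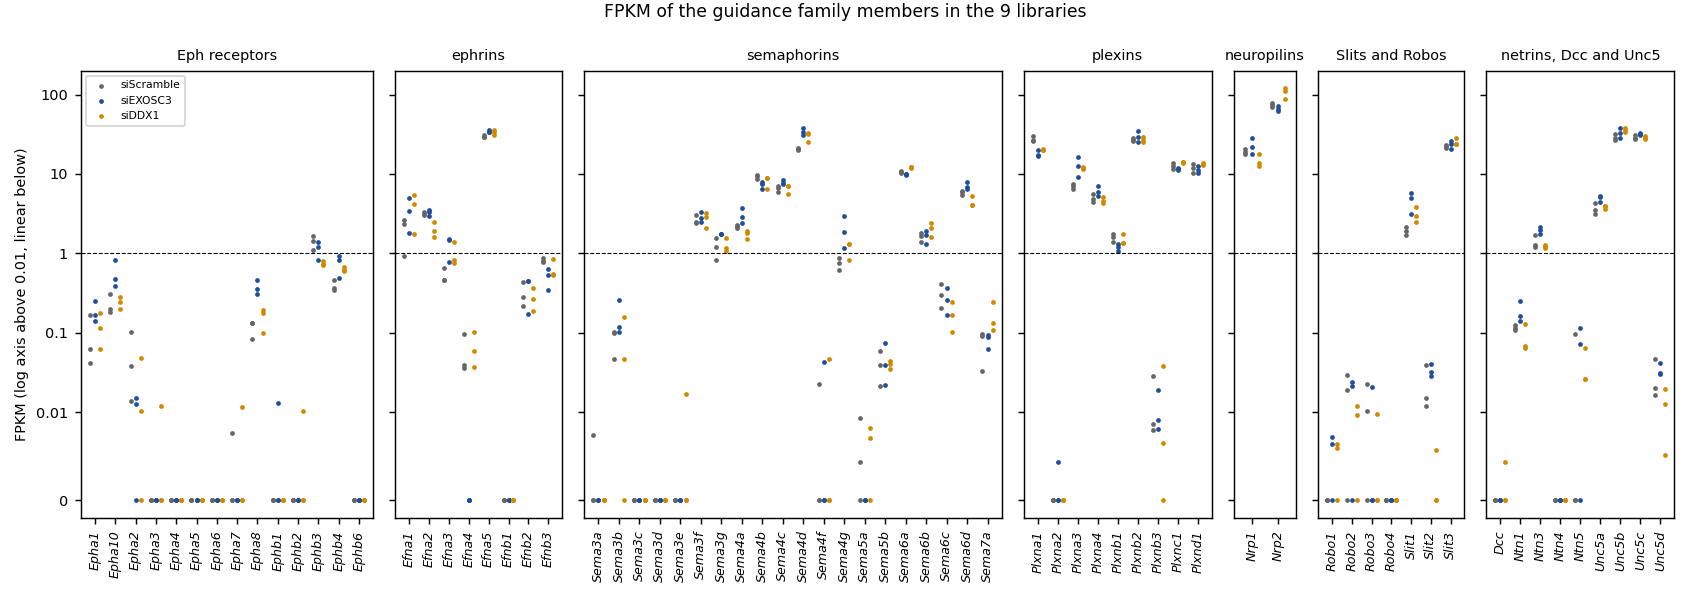
FPKM of the 69 guidance genes other than Plxna4os1 in the 9 libraries, by family. Each point is 1 library, the scramble values are those of the siEXOSC3 table, the axis is logarithmic above 0.01 FPKM and linear below it, and the dashed line marks 1 FPKM. The 4 Robos, Dcc, 8 of the 14 Eph receptors and 4 of the 7 class 3 semaphorins stay under 0.1 FPKM in every library, while Nrp2 lies above every other member in the scramble libraries.

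Some ligands and their usual receptors were far apart in level, and others were not. In scramble cells the ephrin-B genes summed to 1.13 FPKM and the EphB genes to 1.79 FPKM. Class 4 semaphorins summed to 39.4 FPKM and B-type plexins to 28.6 FPKM. The ephrin-A genes summed to 35.3 FPKM in scramble cells, and the EphA genes, which code for their receptors, to 0.487 FPKM. Slits summed to 24.3 FPKM and Robos to 0.0270 FPKM. In the netrin family the order was the opposite, with 1.54 FPKM for the netrins and 61.4 FPKM for the Unc5 receptors, and Dcc was listed at 0 in all 3 scramble libraries. Plxnc1, the receptor for Sema7a, stood at 12.6 FPKM and Sema7a at 0.0742 FPKM. Plxnd1, the receptor for Sema3e, stood at 11.8 FPKM, and Sema3e was listed at 0 in every scramble library.

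To ask how the families responded to each depletion, log2(FPKM + 1) was compared with scramble inside each table over all genes with a mean of at least 1 FPKM. Guidance genes moved in both directions and by modest amounts in both knockdowns, and only a minority passed the test. In siEXOSC3 cells Slit1, Plxna3, Sema4d and Efna5 rose, and Plxna1 and Sema4b fell. In siDDX1 cells Plxna3, Nrp2, Sema4d and Unc5b rose, and Efna2 and Plxna1 fell. The same 3 scramble cultures served both comparisons, so the 2 sets of values are given side by side and are not independent of each other.

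Of the 70 members, 29 were tested in siEXOSC3 cells, and 7 of these (24.1%) passed a limma adjusted p-value of 0.05, beside 32.4% of all genes tested. The 7 include Sema4g, which reached the minimum only through its knockdown libraries. Over genes whose knockdown and scramble means both reached 1 FPKM, a restriction chosen after the values were seen, 6 of 28 members (21.4%) and 32.1% of all genes passed. Of these 28 members, 15 (53.6%) did not overlap scramble, beside 49.3% of all genes. The 5 members with higher levels among the 7 stand beside a background of 16.7% and the 2 that fell beside one of 15.7%. The 3 siEXOSC3 libraries lay outside the range of the 3 scramble libraries in 16 of the 29 members (55.2%), beside 49.7% of all genes. They lay above it in 12 members (background 23.8%) and below it in 4 (background 25.9%). The median log2 fold change of the members was 0.18, and that of all genes tested was -0.014. The fold changes are on the log2(FPKM + 1) scale, which understates the change of low genes.

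In siDDX1 cells 28 members were tested, since Sema4g did not reach the minimum there, and 6 (21.4%) passed, beside 10.6% of all genes. Against 5.61% of all genes that rose and 5.03% that fell, 4 members rose and 2 fell. The 3 siDDX1 libraries did not overlap with scramble in 14 members (50%), beside 34.7% of all genes, and lay above it in 9 (background 17.0%) and below it in 5 (background 17.8%). The median log2 fold change was 0.047 over the members and -0.00059 over all genes. Ephb3 reached the minimum only through its scramble libraries, and without such genes 6 of 27 members (22.2%) and 10.5% of all genes passed, and 13 members (48.1%) and 34.5% of all genes did not overlap scramble.

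Both counts changed when 1 library was left out, as did those over all genes. In siDDX1 cells 13 members passed without siDDX1 replicate 3, when 3524 of 11108 genes were called. The count was 2 without siDDX1 replicate 1 or 2 (449 and 349 genes called in all) and 1 without scramble replicate 1 or 3 (158 and 160 genes). In siEXOSC3 cells 3 members passed without scramble replicate 1 (1610 genes called in all), and 4 without siEXOSC3 replicate 1 or scramble replicate 3 (2042 and 1992 genes).

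**Figure D2:**
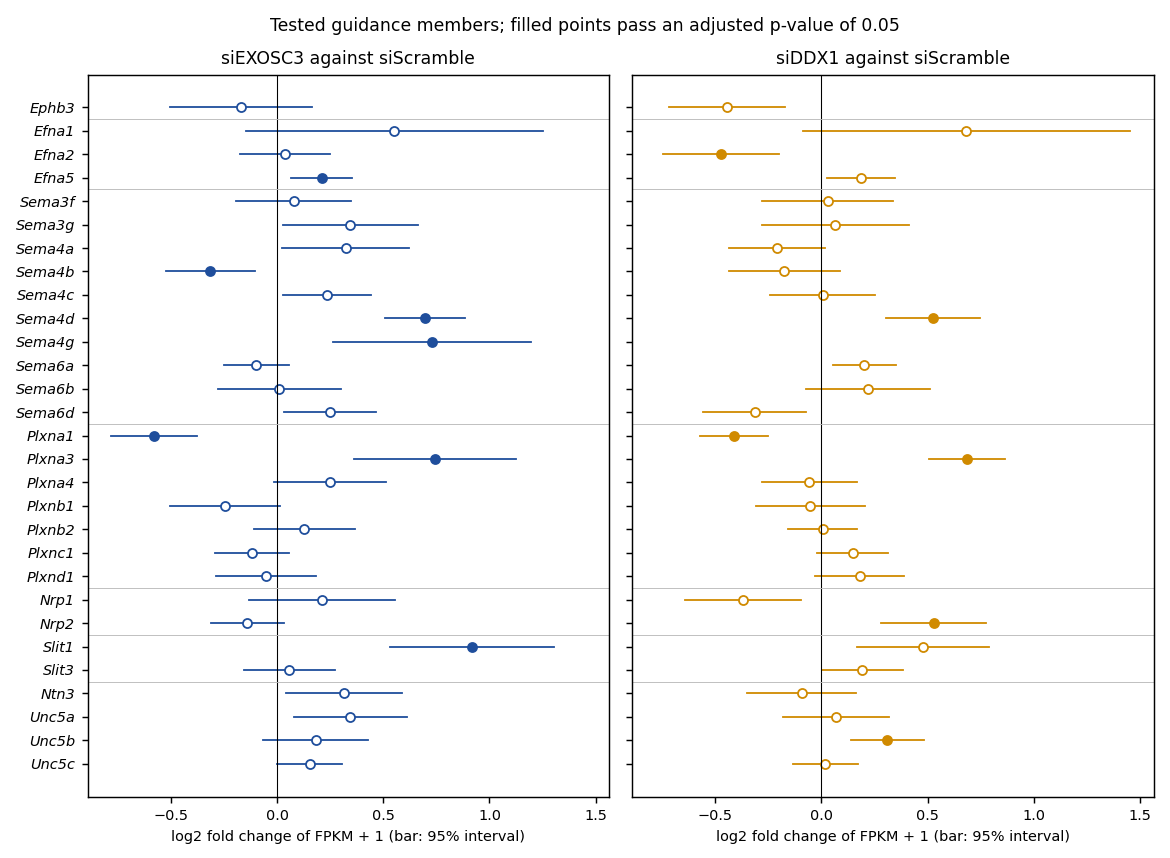
Log2 fold change of FPKM + 1 against scramble for each tested member, with its 95% interval from the limma fit, in siEXOSC3 cells at the left and siDDX1 cells at the right. Filled points pass an adjusted p-value of 0.05, and gray lines part the families. Plxna1 is filled and left of 0 in both panels, Plxna3 and Sema4d are filled and right of 0 in both, and the interval of Efna1 is the widest of all.

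Among the ligands the ephrins are taken first. Efna5, a lipid-anchored ephrin on chromosome 17 of NCBIM37 (the sequence of mm9) from 62953533 to 63230666 on the minus strand, made up 81.3% of the summed ephrin FPKM in scramble cells. It stood at 33.6, 33.9 and 35.7 FPKM in the siEXOSC3 libraries and at 29.2, 30.7 and 28.9 FPKM in the scramble libraries. All 3 knockdown values were above all scramble values, yet by little, at 116% ± 3.81 of scramble (SD, n = 3). The log2 change came to 0.21 ± 0.0625 (SE), with a limma adjusted p of 0.0345. The call held in 1 of the 6 fits without 1 library, the one without siEXOSC3 replicate 2, and the adjusted p was 0.0570 to 0.128 in the other 5. In siDDX1 cells Efna5 was 33.7, 36.0 and 31.1 FPKM against 29.0, 30.5 and 28.6 FPKM, again without overlap, but did not pass (log2 fold change 0.19, limma adjusted p = 0.116).

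Efna2, another lipid-anchored ephrin, fell in siDDX1 cells and did not pass in siEXOSC3 cells, and the difference between the knockdowns was not tested. It lies on chromosome 10 from 79642227 to 79652755 on the plus strand. The siDDX1 libraries had 1.59, 1.90 and 2.45 FPKM, and the scramble libraries 3.07, 3.03 and 3.23 FPKM. Every siDDX1 library was lower than every scramble library, and the siDDX1 libraries were further from each other than the scramble libraries were. Efna2 fell to 63.6% ± 14.0 of scramble (SD, n = 3), a log2 fold change of -0.47 ± 0.119 (SE, limma adjusted p = 0.0423). This call held without siDDX1 replicate 3 and in none of the other 5 fits that left out 1 library (adjusted p 0.0987 to 0.143), nor when genes under the minimum were tested too (0.0820). The 3 siEXOSC3 libraries, with 2.96, 3.50 and 3.30 FPKM, overlapped the scramble libraries (log2 fold change 0.04).

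Efna1 varied widely within each group and missed the threshold. Its scramble libraries had 2.61, 2.31 and 0.922 FPKM, its siEXOSC3 libraries 3.38, 1.78 and 4.93 FPKM, and its siDDX1 libraries 4.22, 5.49 and 1.75 FPKM. Groups overlapped in both tables, with scramble replicate 3 the lowest of all 9 libraries. The log2 fold changes were 0.55 (limma adjusted p = 0.194) and 0.68 (limma adjusted p = 0.210), with 95% intervals of -0.15 to 1.25 and -0.09 to 1.45. The remaining 5 ephrins lay under the minimum. Efna3 was above scramble in all 3 libraries of both knockdowns, with 0.784 to 1.52 FPKM in siEXOSC3 against 0.456 to 0.659 FPKM, and 0.754 to 1.41 FPKM in siDDX1 against 0.451 to 0.654 FPKM. When genes under the minimum were tested too, Efna3 passed in siEXOSC3 cells (log2 fold change 0.55, limma adjusted p = 0.0462).

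Semaphorins were the largest family, with 20 members, of which 10 were tested in siEXOSC3 cells and 9 in siDDX1 cells. In siEXOSC3 cells 3 passed (30%, beside 32.4% of all genes), 2 of them higher and 1 lower. 1 of the higher genes is Sema4g, and among the semaphorins with both group means at 1 FPKM or more 2 of 9 passed (22.2%, beside 32.1% of all such genes). In siDDX1 cells 1 rose (11.1%, beside 10.6% of all genes). The members that passed belong to class 4, whose members span the membrane and bind B-type plexins among others.

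Sema4d, the class 4 semaphorin that signals through Plxnb1, rose in both knockdowns. It lies on chromosome 13 from 51796615 to 51889116 on the minus strand and made up 33.5% of the summed semaphorin FPKM in scramble cells. In the siEXOSC3 table it stood at 33.4, 31.3 and 38.0 FPKM after knockdown and at 19.8, 21.4 and 20.8 FPKM in scramble. The lowest knockdown library was well above the highest scramble library. Sema4d reached 166% ± 16.7 of scramble (SD, n = 3), a log2 fold change of 0.70 ± 0.0828 (SE, limma adjusted p = 0.00142), and this held in all 6 fits without 1 library. In siDDX1 cells it was 32.6, 32.1 and 25.5 FPKM against 19.7, 21.2 and 20.6 FPKM. Here replicate 3 was closer to scramble than the other 2 libraries, and no libraries overlapped. The rise was to 147% ± 19.2 of scramble (SD, n = 3), a log2 fold change of 0.52 ± 0.0959 (SE, limma adjusted p = 0.0157). It did not hold without siDDX1 replicate 1 or 2 or scramble replicate 1 or 3 (adjusted p 0.0526 to 0.0835).

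Sema4b fell in siEXOSC3 cells. Located on chromosome 7 from 87331727 to 87371280 on the plus strand, this transmembrane semaphorin had 7.41, 6.44 and 7.90 FPKM in siEXOSC3 cells and 9.48, 8.59 and 9.68 FPKM in scramble. All 3 knockdown libraries were below the lowest scramble library. Sema4b fell to 78.4% ± 8.04 of scramble (SD, n = 3), a log2 fold change of -0.32 ± 0.0917 (SE, limma adjusted p = 0.0312), which did not hold without siEXOSC3 replicate 1 or scramble replicate 1 or 3 (adjusted p 0.0771 to 0.114) or when genes under the minimum were tested too (0.0643). In siDDX1 cells the values were 8.76, 8.87 and 6.55 FPKM against 9.41, 8.52 and 9.56 FPKM and overlapped (log2 fold change -0.18, limma adjusted p = 0.333). The FPKM of Sema4d was 4.51 to 4.85 times that of Sema4b in siEXOSC3 cells and 3.62 to 3.90 times in siDDX1 cells, against 2.09 to 2.49 times in scramble. This pair, like the other ratios given here, was chosen after its values had been seen.

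Sema4g, a transmembrane semaphorin on chromosome 19 from 45063591 to 45077887 on the plus strand, had 1.85, 1.16 and 2.92 FPKM in siEXOSC3 cells and 0.614, 0.753 and 0.876 FPKM in scramble. Its siEXOSC3 libraries were all higher than scramble and spread widely. The level was 265% ± 119 of scramble (SD, n = 3). Sema4g reached the minimum of 1 FPKM only through the knockdown libraries, so a gene at its scramble level entered the fit only if it was higher there, and its result (log2 fold change 0.73) is given as a description and not read as a rise. After DDX1 knockdown Sema4g had 1.30, 1.32 and 0.826 FPKM against 0.609, 0.747 and 0.865 FPKM. This was 155% ± 37.5 of scramble (SD, n = 3), with overlap, and it was not tested.

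Of the semaphorins that did not pass in either knockdown, several had no overlap between groups. Over all genes tested this held for 49.7% in siEXOSC3 and 34.7% in siDDX1. Sema4c, Sema3g, Sema4a and Sema6d lay above scramble in all 3 siEXOSC3 libraries, with log2 fold changes of 0.23 to 0.35 and adjusted p-values of 0.0754 to 0.0897. Sema6a lay below scramble in all 3 of them (log2 fold change -0.10, limma adjusted p = 0.286). Sema3g is a secreted ligand of neuropilin and plexin complexes, and Sema6d a transmembrane ligand of Plxna1. In siDDX1 cells Sema4a (log2 fold change -0.21) and Sema6d (-0.31) lay below scramble in all 3 libraries, and Sema6a (0.20), a transmembrane ligand of Plxna2 and Plxna4, lay above it. Sema3f, the secreted ligand of Nrp2, was at 108% ± 15.9 and 104% ± 22.2 of scramble (SD, n = 3) in the 2 knockdowns, with overlap in both.

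Slit1, a secreted ligand of Robo receptors on chromosome 19 from 41674747 to 41818155 on the minus strand, had the largest log2 fold change of FPKM + 1 of any tested member (with a pseudocount of 0.1 in place of 1 Sema4g came to 1.22 and Slit1 to 1.19). The siEXOSC3 libraries had 5.00, 3.17 and 5.68 FPKM and the scramble libraries 1.89, 2.15 and 1.72 FPKM. Even siEXOSC3 replicate 2, the lowest of the 3, was above all scramble libraries. Slit1 rose to 240.4% ± 67.6 of scramble (SD, n = 3), a log2 fold change of 0.92 ± 0.170 (SE, limma adjusted p = 0.00646), and the call held in all 6 fits without 1 library. In siDDX1 cells it was 2.97, 3.80 and 2.45 FPKM against 1.88, 2.13 and 1.70 FPKM. These groups did not overlap either, yet Slit1 missed the threshold (log2 fold change 0.48 ± 0.135 SE, limma adjusted p = 0.0582), and passed without siDDX1 replicate 3 (adjusted p = 0.00645).

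Slit3 remained the main Slit in every library. It supplied 91.9% of the summed Slit and Robo FPKM in scramble cells, with 21.3, 22.7 and 23.1 FPKM in the siEXOSC3 table, 23.5, 26.2 and 20.4 FPKM after EXOSC3 knockdown, and 23.8, 24.1 and 28.7 FPKM after DDX1 knockdown. The siEXOSC3 libraries overlapped scramble (log2 fold change 0.06, limma adjusted p = 0.665), and the siDDX1 libraries were all higher than scramble in their own table without passing (log2 fold change 0.19, limma adjusted p = 0.165). The ratio of Slit1 to Slit3 FPKM was 0.121 to 0.279 in siEXOSC3 cells and 0.0744 to 0.0947 in scramble, and at 0.0852 to 0.158 in siDDX1 cells it overlapped scramble. Slit2 never exceeded 0.0402 FPKM.

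Ntn3 was the only netrin tested. It lay above scramble in all 3 siEXOSC3 libraries at 142% ± 14.5 of scramble (SD, n = 3), but the log2 fold change of 0.32 did not pass (limma adjusted p = 0.0743). After DDX1 knockdown Ntn3 stood at 88.6% ± 4.63 (SD, n = 3). Its exons overlap those of Tbc1d24 on the same strand and of BC028777 on the other, over 1.82% and 2.84% of its exonic bases. Reads of the stretch shared with BC028777 cannot be told apart in libraries without strand. Those shared with Tbc1d24 could not be told apart by strand in any library.

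Of the 13 receptors tested in siDDX1 cells, Plxna3, Nrp2 and Unc5b rose, beside 5.61% of all genes, and Plxna1 fell. The promoters of the 3 that rose are shown. The sequences are those of RefSeq on GRCm38.p6 and run 5′ to 3′ on the strand of the gene, from 250 bases before its start to 50 after it. Capitals mark GC boxes, the letters GGGCGG or, on the other strand, CCGCCC, the binding motif of Sp1-type factors. Plxna3 (chrX:74328816-74329115, plus strand) holds 2 boxes, Nrp2 (chr1:62703067-62703366, plus strand) 5 and Unc5b (chr10:60831532-60831831, minus strand) 3, and none holds TATAAA on either strand.
Plxna3: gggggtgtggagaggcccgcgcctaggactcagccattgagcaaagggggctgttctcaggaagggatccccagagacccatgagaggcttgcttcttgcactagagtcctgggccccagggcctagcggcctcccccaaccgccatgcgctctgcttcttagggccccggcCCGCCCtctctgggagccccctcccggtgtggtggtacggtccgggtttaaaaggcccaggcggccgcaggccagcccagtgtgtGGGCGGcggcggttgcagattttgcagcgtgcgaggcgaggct
Nrp2: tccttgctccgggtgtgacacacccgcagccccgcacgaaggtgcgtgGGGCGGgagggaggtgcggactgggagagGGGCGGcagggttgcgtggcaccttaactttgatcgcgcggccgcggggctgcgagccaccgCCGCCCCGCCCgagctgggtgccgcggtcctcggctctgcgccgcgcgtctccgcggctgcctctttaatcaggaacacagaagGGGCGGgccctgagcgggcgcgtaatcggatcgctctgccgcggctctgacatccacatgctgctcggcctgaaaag
Unc5b: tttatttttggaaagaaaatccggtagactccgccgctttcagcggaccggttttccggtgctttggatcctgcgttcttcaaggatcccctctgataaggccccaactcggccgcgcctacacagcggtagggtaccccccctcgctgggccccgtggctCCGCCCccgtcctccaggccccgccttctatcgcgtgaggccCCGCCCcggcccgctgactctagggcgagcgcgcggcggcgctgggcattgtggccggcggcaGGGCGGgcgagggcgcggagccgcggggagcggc
Their GC contents were 67.7, 70.7 and 69.7%, beside a median of 64.3% over the 75 promoters of the 59 members that matched by symbol and of 52.7% over all 32851 promoters of the table. A GC box occurs in 35.7% of all promoters and in 53 of these 75 (70.7%), and TATAAA in 13.6% and in 2. A match is a description of these letters alone. The table holds no entry for Plxna1 or Slit1.

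The receptor calls with the smallest p-values were of A-type plexins, the signalling partners of neuropilins for secreted semaphorins. Plxna1 and Plxna3 moved in opposite directions in both knockdowns. Plxna1 lies on chromosome 6 from 89266310 to 89312607 on the minus strand, and 970 of its 9025 exonic bases overlap Gm16896 on the other strand. Its siEXOSC3 libraries had 17.0, 17.3 and 20.0 FPKM and the scramble libraries 27.0, 25.7 and 30.0 FPKM. The highest knockdown library was below the lowest scramble library. Plxna1 fell to 65.7% ± 6.04 of scramble (SD, n = 3), a log2 fold change of -0.58 ± 0.0879 (SE, limma adjusted p = 0.00327), in all 6 fits without 1 library as well. The 3 siDDX1 libraries, at 20.2, 20.4 and 20.1 FPKM, were nearly equal and all under the 26.8, 25.5 and 29.6 FPKM of scramble. The fall was to 74.1% ± 0.457 of scramble (SD, n = 3), a log2 fold change of -0.41 ± 0.0693 (SE, limma adjusted p = 0.0128), which was lost without scramble replicate 1 (adjusted p = 0.0661) or scramble replicate 3 (adjusted p = 0.0576).

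Plxna3, which acts with Nrp2 in the response to Sema3f, lies on chromosome X from 71574405 to 71590028 on the plus strand. After EXOSC3 knockdown it had 12.7, 9.18 and 16.1 FPKM, against 6.41, 7.47 and 7.12 FPKM in scramble. The knockdown libraries were spread widely, and all were above scramble. Plxna3 rose to 181% ± 49.5 of scramble (SD, n = 3), a log2 fold change of 0.74 ± 0.168 (SE, limma adjusted p = 0.0129), and missed the threshold without scramble replicate 1 (adjusted p = 0.0545). After DDX1 knockdown it had 12.2, 11.7 and 11.4 FPKM against 6.36, 7.41 and 7.04 FPKM. These libraries agreed closely and did not overlap scramble. The rise was to 169% ± 5.48 of scramble (SD, n = 3), a log2 fold change of 0.69 ± 0.0777 (SE, limma adjusted p = 0.00463), and held in all 6 fits without 1 library. The ratio of Plxna3 to Plxna1 FPKM was 0.237 to 0.291 in scramble cells, 0.530 to 0.804 in siEXOSC3 cells and 0.567 to 0.601 in siDDX1 cells. The A-type plexins summed to 93.3% ± 10.4 of scramble in siEXOSC3, with overlap, and to 93.6% ± 0.192 in siDDX1, below scramble in all libraries (SD, n = 3). The summed FPKM of all 9 plexins was 98.1% ± 7.61 of scramble in siEXOSC3 and 100.7% ± 1.74 in siDDX1 (SD, n = 3), with overlap in both.

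The other plexins did not pass. Plxnb2, a receptor for class 4 semaphorins and the most abundant plexin after Plxna1 in scramble, was at 110.4% ± 16.6 of scramble in siEXOSC3 and 100.6% ± 7.43 in siDDX1 (SD, n = 3). Plxnb1 was below scramble in all 3 siEXOSC3 libraries at 74.5% ± 8.21 (SD, n = 3, log2 fold change -0.24, limma adjusted p = 0.127), and Plxnc1 above it in all 3 siDDX1 libraries at 111% ± 1.99 (SD, n = 3, log2 fold change 0.15, limma adjusted p = 0.218). Plxna4 and Plxnd1 overlapped in both tables. Plxna2 and Plxnb3 never exceeded 0.0379 FPKM.

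Neuropilins bind secreted semaphorins and hand the signal to plexins. Nrp2 rose in siDDX1 cells, and Nrp1 missed the threshold in either knockdown. Nrp2, whose promoter held the most GC boxes of the 3 printed, on chromosome 1 from 62749859 to 62865269 on the plus strand, had 119, 111 and 89.0 FPKM in siDDX1 libraries and 73.0, 78.1 and 68.2 FPKM in scramble. Replicate 3 was nearest to scramble but did not overlap it. Nrp2 reached 146% ± 21.4 of scramble (SD, n = 3), a log2 fold change of 0.53 ± 0.108 (SE, limma adjusted p = 0.0224). The call was lost without siDDX1 replicate 1 or 2 or scramble replicate 1 or 3 (adjusted p 0.0651 to 0.103), and when genes under the minimum were tested too (0.0592). After EXOSC3 knockdown Nrp2 was 66.5, 62.8 and 71.1 FPKM against 73.5, 78.7 and 69.0 FPKM, with overlap (log2 fold change -0.14, limma adjusted p = 0.179).

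Nrp1, the binding receptor for Sema3a, had 12.6, 13.5 and 17.6 FPKM in siDDX1 cells and 18.9, 17.6 and 20.4 FPKM in scramble, where siDDX1 replicate 3 entered the scramble range (log2 fold change -0.37, limma adjusted p = 0.0818). Without that library Nrp1 passed (adjusted p = 0.00183). In siEXOSC3 cells it had 21.7, 28.6 and 17.7 FPKM against 19.0, 17.7 and 20.7 FPKM, and the groups overlapped (log2 fold change 0.21, limma adjusted p = 0.306). Nrp2 FPKM was 5.06 to 9.46 times Nrp1 FPKM in siDDX1 libraries and 3.34 to 4.44 times in scramble, with siDDX1 replicate 3 the lowest of its group. In siEXOSC3 libraries it was 2.19 to 4.01 times, which overlapped scramble.

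The Unc5 receptors, which mediate repulsion from netrins, were the most abundant receptors of the netrin family. Unc5b lies on chromosome 10 from 60225358 to 60294329 on the minus strand. It had 37.6, 35.3 and 34.2 FPKM in siDDX1 cells and 26.5, 28.2 and 31.2 FPKM in scramble. The lowest siDDX1 library was above the highest scramble library. Unc5b rose to 125% ± 6.14 of scramble (SD, n = 3), a log2 fold change of 0.31 ± 0.0751 (SE, limma adjusted p = 0.0376), and the call held without siDDX1 replicate 3 but in none of the other 5 fits without 1 library (adjusted p 0.0603 to 0.150), and was lost when genes under the minimum were tested too (0.0654) and without the intensity trend of the fit (0.0545). In siEXOSC3 cells it had 32.6, 28.6 and 37.9 FPKM against 26.7, 28.4 and 31.6 FPKM, which overlapped (log2 fold change 0.18, limma adjusted p = 0.223).

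Unc5a, another of these receptors, had 4.39, 5.28 and 5.07 FPKM in siEXOSC3 cells against 3.15, 4.34 and 3.53 FPKM in scramble. All 3 knockdown libraries were above scramble, the lowest of them by little, and the log2 fold change of 0.34 just missed the threshold (limma adjusted p = 0.0513), which it passed without scramble replicate 2 (adjusted p = 0.0360). In siDDX1 cells it had 3.97, 3.64 and 3.91 FPKM against 3.12, 4.30 and 3.49 FPKM, with overlap (log2 fold change 0.07, limma adjusted p = 0.715). Unc5c lay at 111% ± 3.16 of scramble in siEXOSC3 and at 101% ± 4.80 in siDDX1 (SD, n = 3), and neither passed. Dcc was above 0 in 1 of the 9 libraries, and none of the Robos exceeded 0.0292 FPKM.

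Eph receptors were the lowest family, with 14 members that summed to 2.28 FPKM in scramble cells. Ephb3, a receptor for B-type ephrins, made up 61.5% of this and was the only one tested. Its siDDX1 libraries had 0.712, 0.736 and 0.792 FPKM and its scramble libraries 1.42, 1.08 and 1.65 FPKM. All 3 siDDX1 libraries were lower than scramble, at 53.8% ± 2.96 (SD, n = 3), and the log2 fold change of -0.44 ± 0.119 (SE) stood at a limma adjusted p of 0.0512. Ephb3 reached the minimum in this table only through its scramble libraries, so its test is not read further. In siEXOSC3 cells Ephb3 had 1.20, 0.822 and 1.38 FPKM against 1.43, 1.09 and 1.67 FPKM and overlapped (log2 fold change -0.17). Below the minimum, Epha8 (0.311 to 0.463 FPKM against 0.0824 to 0.134) and Epha10 (0.389 to 0.833 FPKM against 0.180 to 0.303) were above scramble in all 3 siEXOSC3 libraries. Ephb4 lay above scramble in all libraries of both knockdowns, with 0.495 to 0.913 FPKM in siEXOSC3 against 0.343 to 0.463 FPKM. With genes under the minimum tested too, Epha8 passed in siEXOSC3 cells (log2 fold change 0.30, limma adjusted p = 0.0141).

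**Figure D3:**
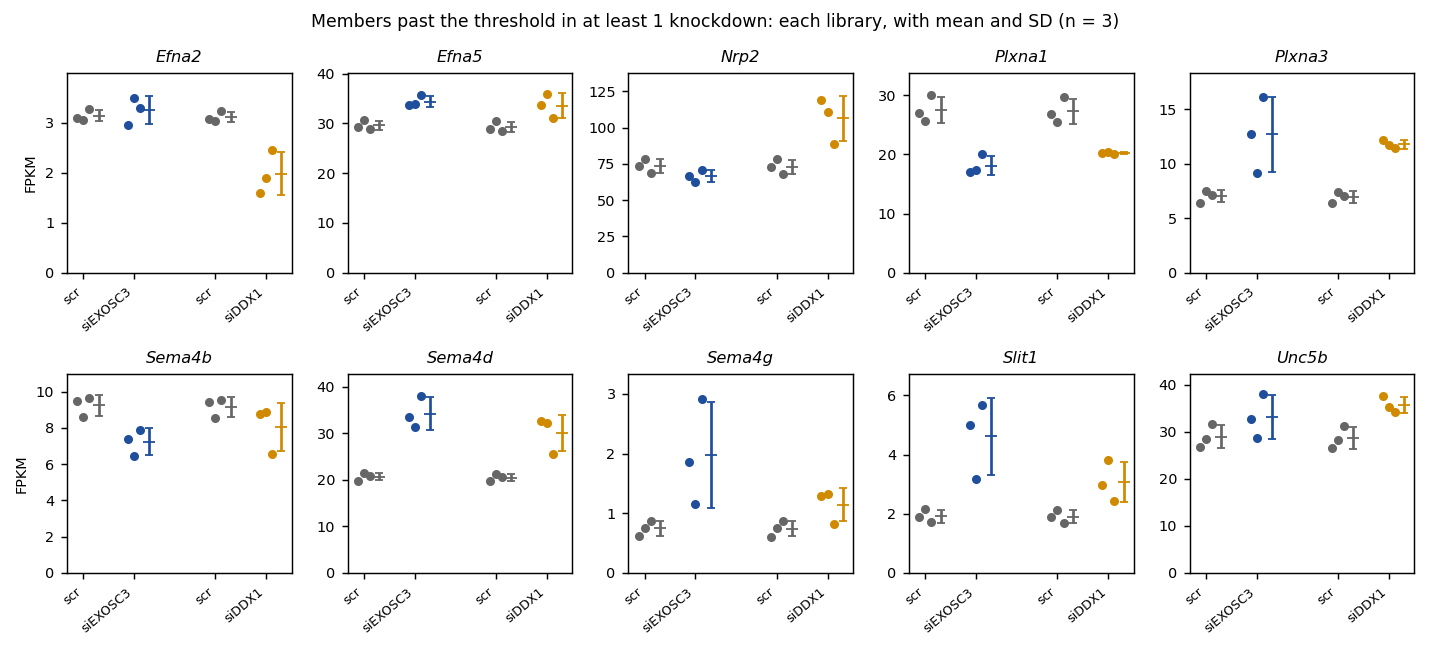
FPKM in each library of the 10 guidance genes that passed the test in at least 1 knockdown. Dots are libraries, the mark beside them is the mean with its SD (n = 3), and scr stands for siScramble in the table of the knockdown to its right. In both knockdowns the dots of Plxna1 lie below scramble and those of Plxna3 and Sema4d above it.

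Some members under the minimum also lay apart from scramble. Of the 32 members untested in siEXOSC3 but above 0 in at least 1 of the 9 libraries, 6 lay above scramble in all 3 siEXOSC3 libraries (Efna3, Epha10, Epha8, Ephb4, Ntn1 and Sema3b) and 2 below it (Efna4 and Efnb3), beside 13.1% and 4.69% of all such genes. Of 33 such members in siDDX1, 3 lay above (Efna3, Ephb4 and Sema7a) and 1 below (Slit2), beside 6.65% and 5.87% of all such genes. Efna4 was listed at 0 in all 3 siEXOSC3 libraries, and its scramble libraries did not exceed 0.0969 FPKM. Plxna4os1, the opposite-strand transcript, reached at most 0.383 FPKM and overlapped scramble in both tables. Low FPKM rest on few fragments.

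Summed over a whole family, 4 of 7 families lay above scramble in all 3 siEXOSC3 libraries. These were semaphorins at 126% ± 10.8 of scramble, ephrins at 118% ± 7.71, Slits and Robos at 115% ± 7.16, and netrins, Dcc and Unc5 at 115% ± 5.74 (SD, n = 3 each). Single members gave much of some of these differences. The semaphorin mean went from 61.7 to 78.0 FPKM, and that of Sema4d alone from 20.7 to 34.2 FPKM. Slits and Robos went from 24.3 to 28.1 FPKM, and Slit1 alone from 1.92 to 4.62 FPKM. How often sums over other sets of genes separate was not counted. In siDDX1 cells neuropilins (131% ± 14.1), Slits and Robos (119% ± 9.48), semaphorins (116% ± 9.62) and the netrin family (112% ± 2.39) lay above scramble in all libraries, and Eph receptors lay below it at 85.3% ± 5.74 (SD, n = 3 each). Nrp2 made up 79.4% of the neuropilin sum in scramble cells and Unc5b 46.0% of that of the netrin family. From scramble to siDDX1 the semaphorin mean went from 61.1 to 70.6 FPKM and that of Sema4d alone from 20.5 to 30.1 FPKM. The netrin family went from 62.3 to 69.8 FPKM and Unc5b alone from 28.6 to 35.7 FPKM. Within the Eph family the EphA genes, none of them tested, summed to 233% ± 37.8 of scramble in siEXOSC3 cells (SD, n = 3). This was a step from 0.487 to 1.14 FPKM. In siDDX1 cells the EphA sum was 113% ± 19.3 of scramble (SD, n = 3) and overlapped it. The EphB genes summed to 105% ± 27.5 in siEXOSC3 cells and to 77.8% ± 2.07 in siDDX1 cells (SD, n = 3 each).

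**Figure D4:**
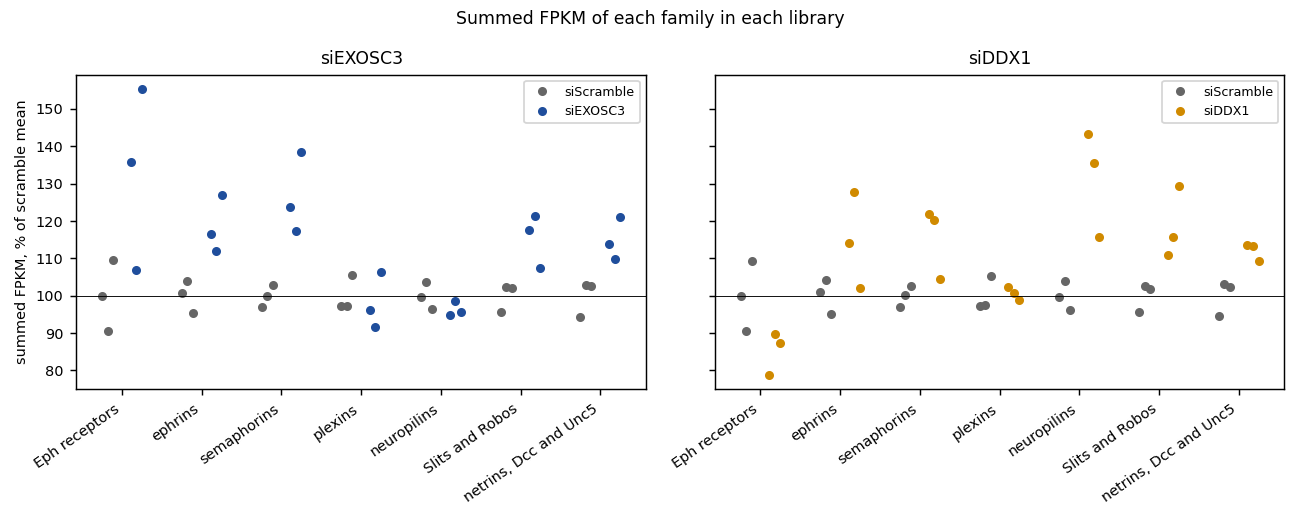
Summed FPKM of each family in each library, as a percent of the scramble mean of the same table. Gray points are scramble libraries, blue points siEXOSC3 and amber points siDDX1, and the line marks 100%. Neuropilins separate from scramble in siDDX1 but not in siEXOSC3, and plexins overlap scramble in both panels.

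The calls differed in whether they stayed past the threshold when 1 library was left out. Such a fit has fewer libraries, so a lost call need not mean a smaller change. Plxna1 in siDDX1 cells had a log2 fold change of -0.42 without scramble replicate 1, where its call was lost, and of -0.41 with all 6 libraries. In siEXOSC3 cells Sema4d, Plxna1 and Slit1 stayed past the threshold whichever library was left out. In siDDX1 cells Plxna3 did. Members that missed the threshold could also pass without 1 library. In siDDX1 cells leaving out siDDX1 replicate 3 brought Efna1 (adjusted p = 0.00918), Sema6d (0.00698), Efna5 (0.0178) and Sema6a (0.0341) past it, besides Nrp1 and Slit1. Ephb3 (0.0310), whose test is not read further, also passed there. In siEXOSC3 cells leaving out siEXOSC3 replicate 2 did so for Sema4a (adjusted p = 0.0204), Efna1 (0.0269) and Unc5b (0.0402), and leaving out siEXOSC3 replicate 3 for Nrp1 (0.0405).

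**Figure D5:**
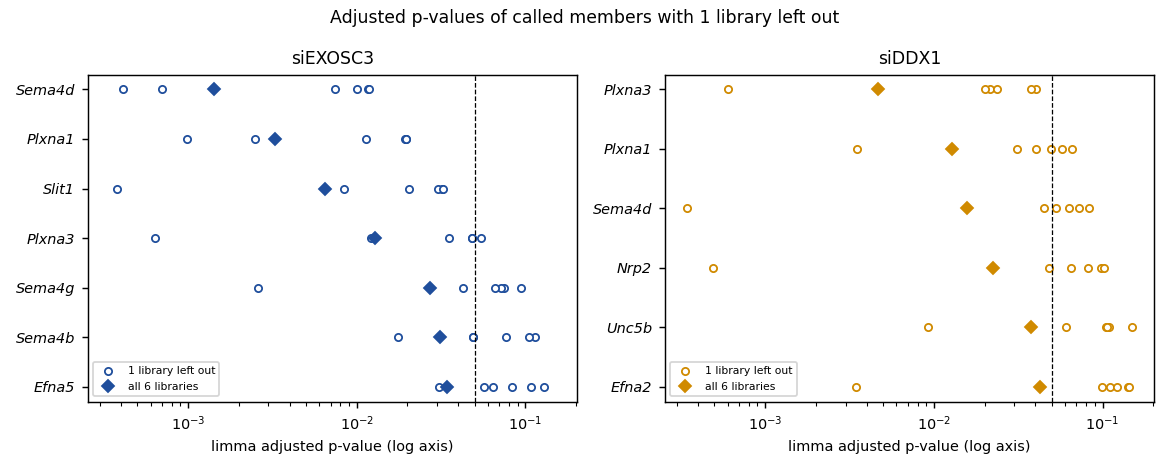
Limma adjusted p-values, on a logarithmic axis, of each guidance gene that passed, from all 6 libraries (diamonds) and with 1 library left out (open circles). The dashed line is 0.05. All circles of Sema4d, Plxna1 and Slit1 at the left and of Plxna3 at the right lie under it, and most circles of Efna5, Unc5b and Efna2 lie above it.

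Beyond the families of the rule, a list of 36 other guidance ligands and receptors (adhesion molecules, RGM, Hedgehog, Wnt, chemokine and FLRT proteins) was read from the same fits. In siEXOSC3 cells 16 were tested, 5 rose and 1 fell (37.5%, beside the 32.4% of all genes), with a median log2 fold change of 0.16. L1cam, an adhesion molecule that takes part in Sema3a signalling with Nrp1, rose to 217% ± 46.8 of scramble (SD, n = 3, limma adjusted p = 0.00161, log2 fold change 1.08). Neo1, a netrin and RGM receptor related to Dcc, rose to 151% ± 18.1, and Dscaml1, an adhesion molecule related to the netrin receptor Dscam, to 159% ± 21.0 (SD, n = 3). Cdon, a Hedgehog coreceptor, fell to 48.4% ± 4.81 of scramble (SD, n = 3, limma adjusted p = 0.00391, log2 fold change -0.73). These 4 calls held in all 6 fits without 1 library. In siDDX1 cells 15 were tested and 3 rose (20%, beside the 10.6% of all genes). Dscaml1 (149.8% ± 17.4 of scramble), Neo1 (130.3% ± 6.97) and L1cam (124% ± 7.10, SD, n = 3 each) rose, with limma adjusted p-values of 0.0322, 0.0114 and 0.0246. Neo1 kept its call in 3 of the 6 fits and was lost without siDDX1 replicate 2 or scramble replicate 1 or 3 (adjusted p 0.0520 to 0.0640), and the other 2 kept it only without siDDX1 replicate 3 (adjusted p 0.0577 to 0.139 in the other fits). The call of Dscaml1 in siDDX1 cells was also lost when genes under the minimum were tested too (0.0690). The count of 3 was 9 without siDDX1 replicate 3, where 3524 of all genes were called. It was 1 without siDDX1 replicate 1 or scramble replicate 2 (449 and 520 genes called in all). Without siDDX1 replicate 2 or scramble replicate 1 or 3 it was 0 (349, 158 and 160 genes).

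A second list held 59 intracellular effectors of guidance receptors, such as GTPase regulators, kinases and actin binding proteins. In siEXOSC3 cells 52 were tested, 15 rose and 4 fell (36.5%, beside the 32.4% of all genes), and in siDDX1 cells 51 were tested, 5 rose and 4 fell (17.6%, beside 10.6%). The largest rises in siEXOSC3 cells were those of Rras, a small GTPase that plexins inactivate (log2 fold change 1.00, limma adjusted p = 0.00278), Dpysl2, a collapsin response mediator (0.63), and Chn2, a Rac inhibitor (0.59). The largest falls were those of Gipc1, an adaptor that binds Nrp1 (-0.36), Arhgef12, an exchange factor bound by B-type plexins (-0.32), and Ablim1, an actin binding protein (-0.26). Arhgef12 missed the threshold without scramble replicate 1 (adjusted p = 0.0531), and Ablim1 missed it in each of the 6 fits without 1 library (adjusted p 0.0508 to 0.139), when genes under the minimum were tested too, under median centring or quantile normalization, and without the intensity trend (0.0566 to 0.0789). In siDDX1 cells Dpysl3, another collapsin response mediator, rose to 138% ± 4.58 of scramble (SD, n = 3, limma adjusted p = 0.00668, log2 fold change 0.46), in all 6 fits without 1 library as well. Vasp, an actin regulator (0.36), and Arhgef11 (0.33) also rose there, and Fes, a kinase (-0.42), Ssh1, a cofilin phosphatase (-0.38), and Gipc1 (-0.27) fell. Vasp kept its call without siDDX1 replicate 3 or scramble replicate 3, and the other 4 only without siDDX1 replicate 3 (adjusted p 0.0673 to 0.174 in the other fits). When genes under the minimum were tested too, Arhgef11 (adjusted p = 0.0784) and Ssh1 (0.0972) lost their calls, and Ssh1 also with a pseudocount of 0.1 (0.0503) and under median centring (0.0551). The count of 9 was 17 without siDDX1 replicate 3 and 1 or 2 without any 1 of the other 5 libraries. The calls over all genes moved likewise, from 1182 to 3524 and to 158 to 520. The count of 19 in siEXOSC3 cells was 10 without scramble replicate 1 (1610 genes called in all). It was 12 without scramble replicate 2 or 3 (2256 and 1992 genes).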

How the data were processed

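Per the labels and the study's methods, RNA from N2A cells was depleted of ribosomal RNA and sequenced without keeping strand. The authors aligned reads with TopHat2 2.1.0 to mm9 and made the deposited FPKM with Cuffdiff 2.2.1, in 1 table for each knockdown beside the same 3 scramble libraries. The scramble values of the tables differ by a factor of 1.01, so tests were kept within a table. The annotation given to Cuffdiff and its normalization are not given in the sources used here. Columns of the authors' own fold changes and p-values were not used.

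Genes with a mean of at least 1 FPKM over the 6 libraries of a table were tested on log2(FPKM + 1) with limma 3.58.1 (R 4.3.3; moderated test with an intensity trend, two-sided), with Benjamini-Hochberg adjustment over all genes tested and a threshold of 0.05, so p-values measure the spread between separate plates of 1 line. The script was first tested on simulated data. Exact permutation of 3 against 3 cannot give a p-value under 0.1 and was not used. Counts were not analysed here, so no count model was fitted, and absolute depth and counting error are unknown. Members and lists were chosen with earlier results of these data known. All members that passed in either knockdown are named, and in the other lists the 3 largest rises and falls that passed. The alternatives were another pseudocount, other minimums, quantile normalization, median centring, no trend, a replicate block, a stricter threshold and leaving out each library. Positions are those of GENCODE vM1 on NCBIM37, the sequence of mm9, and RefSeq promoters were matched by symbol.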

Additional observations from a re-analysis of the deposited data

Results flagged for a closer look

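Sema4a, Sema6a and Sema6d, transmembrane semaphorins of classes 4 and 6, lay on opposite sides of scramble in the 2 knockdowns, with all 3 libraries of each knockdown on 1 side and none overlapping. The log2 fold change of Sema4a was 0.32 in siEXOSC3 cells and -0.21 in siDDX1 cells. That of Sema6a was -0.1 in siEXOSC3 and 0.2 in siDDX1, and that of Sema6d was 0.25 in siEXOSC3 and -0.31 in siDDX1. None passed the limma test of the report in either knockdown. Over all genes tested, 49.7% did not overlap scramble in siEXOSC3 and 34.7% in siDDX1. The share of all genes on opposite sides of scramble was not counted. The knockdowns share their scramble libraries, and the difference between the knockdowns was not tested.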

How the results depend on the processing

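Without the minimum, 3 members passed in siDDX1 cells (the report gives 6). In siEXOSC3 cells the number stayed at 7 without the minimum, with Efna3 and Epha8 passing and Sema4b (adjusted p = 0.0643) and Sema4g not. With the replicate block 6 members passed in siEXOSC3 cells and 10 in siDDX1 cells, 12 effectors in siEXOSC3 cells, and 6 other guidance genes in siDDX1 cells, and median centring gave 5 of the latter. At a threshold of 0.01 there were 3 members in siEXOSC3 cells (Sema4d, Plxna1, Slit1) and 1 in siDDX1 cells (Plxna3), 9 and 1 effectors, and, in siDDX1 cells, 0 other guidance genes, beside 3 by limma at 0.05. Leaving out 1 library gave 3 to 10 members in siEXOSC3 and 1 to 13 in siDDX1, 10 to 23 and 1 to 17 effectors, and, in siDDX1, 0 to 9 other guidance genes. The number of all genes called moved likewise, to 2449 with the block, 1349 at 0.01 and 1610 to 4887 without 1 library in siEXOSC3, and in siDDX1 to 717 without the minimum, 1893 with the block, 183 at 0.01 and 158 to 3524 without 1 library. The causes were not tested.

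Under quantile normalization the log2 fold change in siEXOSC3 cells was -0.094 for Efna2, -0.059 for Sema3f and -0.15 for Sema6b, none of which had passed. Without 1 library it ran in siEXOSC3 cells from -0.0053 to 0.087 for Efna2, from -0.14 to 0.026 for Plxnd1, from -0.0058 to 0.15 for Sema3f, from -0.062 to 0.10 for Sema6b and from -0.027 to 0.15 for Slit3. In siDDX1 cells it ran from -0.11 to 0.014 for Plxna4, from -0.047 to 0.056 for Plxnb2, from -0.070 to 0.16 for Sema3f, from -0.061 to 0.19 for Sema3g, from -0.059 to 0.10 for Sema4c, from -0.012 to 0.17 for Unc5a and from -0.017 to 0.064 for Unc5c. No called member or named gene of the other lists changed sign under any alternative run.

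The replicate numbers did not pair the samples. Same-numbered libraries had correlations of their deviations of 0.035, -0.31 and -0.13 (siEXOSC3) and -0.012, 0.38 and 0.37 (siDDX1), and not every library correlated best with its own number. Under the block Efna5 (limma adjusted p = 0.0913) and the effector Ablim1 (0.0827) missed the threshold in siEXOSC3 cells. Efna1 (limma adjusted p = 0.0163), Slit1 (0.0238), Nrp1 (0.0286) and Ephb3 (0.0413) passed it in siDDX1 cells under the block. Outside the block Unc5a (median centring, no trend), Ntn3 (no trend) and Plxnb1 (quantile normalization) passed in siEXOSC3 cells, and Ephb3 (pseudocount 0.1, no trend) in siDDX1 cells. The FPKM give no counting error, so members under the minimum are the least certain.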
